A study of Mus musculus with 4 samples.

Results

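The libraries labelled as a knockout of Yap held far fewer reads of 9 protein-coding genes than the control libraries: Zfp871, Lcor, Ptar1, Mbnl3, Lmbrd2, Capn11, Zfp804b, Crh and Slc5a11. These are 9 of the 52636 Ensembl genes in the deposited table. They were picked from the same values for falls of about 4-fold or more, and several of them also for long transcripts of low GC content, so the fall of each is a description and carries no test here. RNA came from the total lung of C57BL/6 mice at embryonic day 14.5, with 2 wild-type libraries (control 1 and 2) and 2 libraries from embryos in which Yap was deleted in the epithelium only (Yap CKO 1 and 2). The labels give neither the Cre driver nor the deleted exons, and do not say whether libraries came from separate embryos, so p-values reflect only how far these samples spread, which may be technical. Yap1 itself had 5686 (control 1), 3467 (control 2), 3209 (Yap CKO 1) and 4483 (Yap CKO 2) normalized counts. These groups overlapped, so Yap1 does not check the labels, and every direction below is that of the libraries as labelled.

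Yap is a transcriptional coactivator that the Hippo kinases hold in check. With its paralog Taz it binds TEAD factors on DNA and switches on genes of growth and cell shape, and in the embryonic lung the epithelium needs it to form airways. The 9 genes have no shared role in that pathway. Zfp871 encodes a zinc finger protein, and Lcor a corepressor of nuclear receptors whose locus also codes for a partner of the Polycomb complex PRC2. Ptar1 encodes the alpha subunit of a geranylgeranyl transferase that works with Rabggtb and attaches a lipid to the Golgi protein Ykt6. Mbnl3 encodes a muscleblind protein, which binds RNA and steers splicing, and Lmbrd2 a membrane protein of the LMBR1 domain family. Capn11 encodes a calpain, a calcium-dependent protease known mainly from testis, and Zfp804b a zinc finger protein of neural tissue. Crh encodes corticotropin-releasing hormone, the peptide that drives the pituitary and adrenal axis, whose fetal glucocorticoids mature the lung. Slc5a11 encodes a sodium-coupled transporter of myo-inositol.

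The genes lie on 7 chromosomes of mm10, in the GENCODE M21 annotation. Zfp871 (chr17:32765496-32788287) and Capn11 (chr17:45630204-45659325) share a chromosome, as do Ptar1 (chr19:23687429-23731668) and Lcor (chr19:41482637-41562261). The others are Crh (chr3:19693401-19695396), Zfp804b (chr5:6769010-7344756), Slc5a11 (chr7:123214780-123273253), Lmbrd2 (chr15:9140550-9202483) and Mbnl3 (chrX:51117269-51206532). Skp2 runs over part of Lmbrd2 on the other strand, and 6 other annotated genes lie within the 575747 bases of Zfp804b. None of these overlaps shares an exon base with the gene (0 bases in each), so reads in annotated exons of the 9 genes belong to no second annotated gene.

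Promoter sequences were described at the starts of the genes. RefSeq windows of 250 bases upstream of a start (build GRCm38.p6) were found for 8 of the 9 genes. They are printed 5′ to 3′ on the gene's strand for the upstream windows that hold at most 16 bases of an annotated exon, with each CG pair, the site of DNA methylation in mammals, in capitals. The windows are chr17:32787548-32787797 on the minus strand for Zfp871 (the inner of its 2 starts), chr19:23687150-23687399 on the plus strand for Ptar1, chrX:51205991-51206240 on the minus strand for Mbnl3 and chr17:45659310-45659559 on the minus strand for Capn11.
Zfp871: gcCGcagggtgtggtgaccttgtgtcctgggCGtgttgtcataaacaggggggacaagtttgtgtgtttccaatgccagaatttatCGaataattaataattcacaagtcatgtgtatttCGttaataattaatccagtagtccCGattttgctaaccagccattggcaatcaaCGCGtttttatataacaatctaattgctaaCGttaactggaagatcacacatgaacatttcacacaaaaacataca
Ptar1: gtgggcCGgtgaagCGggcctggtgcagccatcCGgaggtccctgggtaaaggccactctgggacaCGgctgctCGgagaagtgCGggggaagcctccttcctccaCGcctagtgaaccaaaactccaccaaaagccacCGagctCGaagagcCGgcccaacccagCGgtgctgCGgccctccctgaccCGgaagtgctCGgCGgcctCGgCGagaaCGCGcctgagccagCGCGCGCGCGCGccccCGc
Mbnl3: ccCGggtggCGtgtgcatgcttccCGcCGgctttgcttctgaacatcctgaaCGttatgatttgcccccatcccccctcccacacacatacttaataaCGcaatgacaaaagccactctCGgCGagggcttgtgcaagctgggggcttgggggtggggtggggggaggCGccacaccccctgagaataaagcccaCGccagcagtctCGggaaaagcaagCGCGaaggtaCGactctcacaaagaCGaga
Capn11: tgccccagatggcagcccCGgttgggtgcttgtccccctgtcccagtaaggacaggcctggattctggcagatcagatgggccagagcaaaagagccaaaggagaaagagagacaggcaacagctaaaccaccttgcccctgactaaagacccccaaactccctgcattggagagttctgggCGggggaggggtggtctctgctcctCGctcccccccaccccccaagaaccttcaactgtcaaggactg
The observed over expected ratio of CG pairs in these windows was 0.850 for Zfp871, 0.841 for Ptar1, 0.685 for Mbnl3 and 0.136 for Capn11. It was 1.05 for Lcor, 0.742 for Lmbrd2 and 0.581 for Zfp804b, and 0.0866 for Slc5a11. The windows of these genes hold 45, 140, 250 and 86 bases of annotated exons, in that order. That of the outer Zfp871 start holds 144. Their ratios and the motif counts below therefore include exon sequence. Over all 32851 windows the median was 0.373. Thus 6 of the 8 genes lay above that median, and Capn11 and Slc5a11 lay below it. Motifs were searched on both strands, overlaps allowed, starting with the TEAD core GGAATG. It stood in 0 of the 9 windows of these genes and in 12.6% of all windows. CCAAT stood in windows of 3 of the genes (33.8% of all windows) and the GC box GGGCGG in windows of 4 (32.7%). The ETS core CCGGAAG stood in that of Ptar1 only (6.91%). The letters of a CRE (TGACGTCA, 1.55%), of the NRF1 motif (0.782%) and of a YY1 site (AAGATGGC, 1.56%) stood in none of the 9. Such matches are descriptions of these windows and do not show binding.

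Depth was similar between libraries, from 17756301 to 21333878 reads counted to genes, where the limit set by a count of 0, 3 reads, equals 2.80 to 3.51 normalized counts. Values below are normalized counts, which the authors had scaled between libraries. Lung markers were present in every library. The 10 lung epithelial genes checked summed to 21237 to 22813 normalized counts over the 4 libraries. Of these 10, 3 fell and 2 rose by limma (1.15% and 1.19% of all genes tested), so the even sum hides changes in both directions. Control 2 carried more heart muscle RNA than the rest (15 genes summing to 51559, against 1828 to 11615). Control 1 differed in sex-linked genes (Xist 42.6 against 42729 to 50045 in the others, and Y-linked Ddx3y 1726 against 5.77 to 16.4). That is the pattern of male tissue in control 1 and female tissue in the others, so sex was not balanced between the groups. Of the gut genes 5 of 7 tested rose by limma, and of the liver genes 4 of 4. The 10 gut genes summed to 95.9 and 112 in controls and to 1711 and 2447 in Yap CKO, and the 11 liver genes to 29.1 and 87.7 and to 904 and 1657. The part of these differences in the falls of the 9 genes was not tested. In whole lung, fewer cells of a type and less RNA per cell cannot be told apart.

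All 9 genes were above the filter of a mean of 10 normalized counts. Both Yap CKO libraries lay below both controls for 9 of the 9, and percent called by that criterion was 25.6% of the 19472 genes tested. A log2 difference (Yap CKO minus control, on log2 of the count plus 1) of -2, which is 4-fold, was reached by 8 of the 9, and by 0.337% of the 14539 protein-coding genes tested. By limma with Benjamini-Hochberg adjustment the 9 genes were among the 223 that fell, 1.15% of the genes tested (1.22% of the protein-coding genes). The 231 rises made 1.19%, both directions together 2.33%, and 0.421% of all genes reached -2. Since these values chose the genes, nothing is read from the counts of the 9. The median log2 difference was -2.77 for the 9 genes and -0.0050 for all genes tested. Of the 9, limma called 1 when Yap CKO 1 was left out, 2 when Yap CKO 2 was, 4 without the filter and 0 without the intensity trend.

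**Figure D1:**
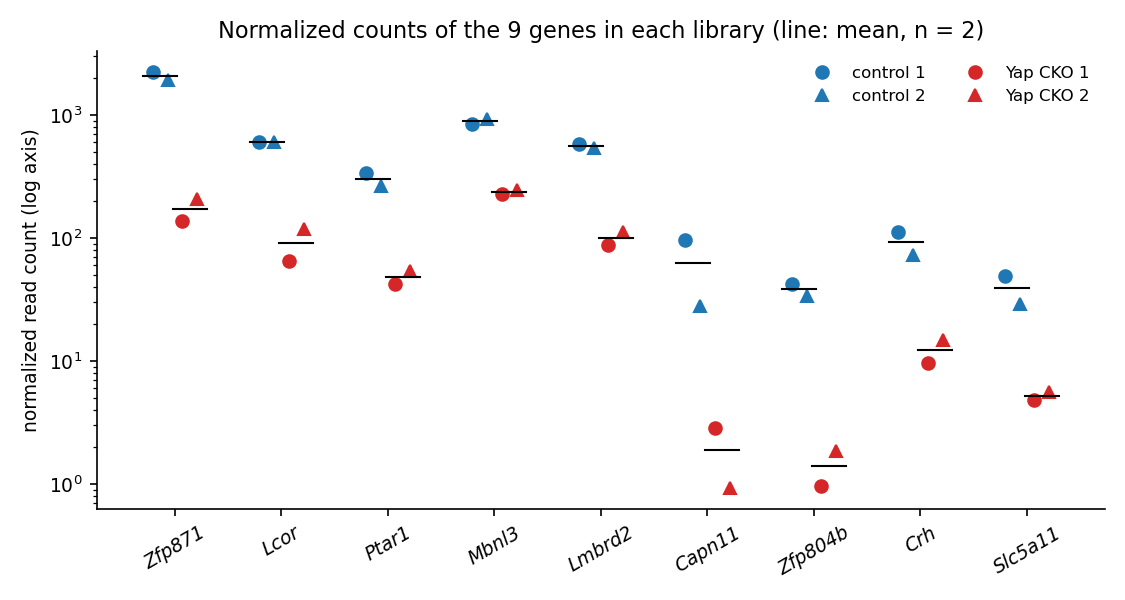
Normalized read counts (log axis) of the 9 genes, 1 point per library, blue for control and red for Yap CKO, with a black line at each group's mean (n = 2). The red points lie below the blue ones for each gene, from Mbnl3 (849 and 932 against 226 and 246) to Zfp804b (42.6 and 33.9 against 0.961 and 1.86).

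Among genes with a control mean of at least 100, the strongest of these falls was that of Zfp871. Controls 1 and 2 held 2251 and 1913, and Yap CKO 1 and 2 held 137 and 206, with no overlap. With 2082 ± 239 against 171 ± 49.1 (SD, n = 2), Yap CKO libraries held 8.23% of the control level, a log2 difference of -3.62. Any control library exceeded any Yap CKO library by 9.29-fold to 16.5-fold, while the replicates differed by at most 1.51-fold. In reads the gene had 3959 in control and 363 in Yap CKO, so counting error is small.

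Lcor showed the closest controls of the 9 genes, at 606 and 601, and stood at 65.4 and 117 in Yap CKO. The log2 difference was -2.77, with 603 ± 3.24 in control and 91.4 ± 36.8 in Yap CKO (SD, n = 2). The Yap CKO libraries differed from each other by 1.80-fold, and the least separated pair of a control and a Yap CKO library by 5.12-fold.

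Ptar1 was measured at 340 and 264 in controls and at 42.3 and 54.1 in Yap CKO. Yap CKO libraries kept 15.9% of the control level (302 ± 53.6 against 48.2 ± 8.32, SD, n = 2), a log2 difference of -2.62. For Lmbrd2 the values were 582 and 537 in controls and 88.5 and 113 in Yap CKO. Its means were 560 ± 32.3 and 101 ± 17.2, a log2 difference of -2.47. Ptar1 and Lmbrd2 thus fell by similar amounts from different levels, and replicates within a group differed by at most 1.29-fold for both.

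Mbnl3 fell least, from 849 and 932 in controls to 226 and 246 in Yap CKO. Its log2 difference of -1.91, from 890 ± 58.8 to 236 ± 14.2 (SD, n = 2), is just short of 4-fold. Its replicates were close in both groups, at 1.10-fold and 1.09-fold. Mbnl3 lies on the X chromosome, and control 1, which is low in Xist, gave a level close to that of control 2.

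The other 4 genes were scarce, and their counting error is wide. Crh stood at 111 and 72.5 in controls and at 9.61 and 14.9 in Yap CKO. The log2 difference was -2.81, with 92.0 ± 27.5 in control and 12.3 ± 3.75 in Yap CKO (SD, n = 2). It had 177 reads in control and 26 in Yap CKO, a ratio of 7.62 with an exact 95% counting interval of 5.03 to 12.0. Slc5a11 was measured at 49.4 and 29.2 in controls and at 4.81 and 5.59 in Yap CKO. With 76 and 11 reads its ratio was 7.74, with an interval of 4.09 to 16.1. The intervals of Crh and Slc5a11 overlap, so these reads do not separate the sizes of their falls.

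Zfp804b stood at 42.6 and 33.9 in controls and at 0.961 and 1.86 in Yap CKO, below the 3-read limit in both. Its 3 reads in Yap CKO against 73 in control gave a ratio of 27.2 (exact 95% interval 8.96 to 135). Capn11 was the most variable of the 9 genes between controls, at 96.9 and 28.1, and stood at 2.88 and 0.932 in Yap CKO, at or below that limit. Its 4 reads in Yap CKO against 124 in control gave a ratio of 34.7 (13.2 to 129). The log2 difference of Capn11 was -4.28, and it was -3.41 without control 1 and -5.16 without control 2. Of 13 adrenal and gonad markers, which cover the tissues where Capn11 is best known, 1 (Tnp1) was at 0 in every library. The list summed to 208 and 215 in controls and 263 and 245 in Yap CKO. Star made most of these sums, at 126 and 149.7 in controls and 179.8 and 176.2 in Yap CKO. The germ cell gene Ddx4 went the other way, at 28.1 and 14.03 and at 7.69 and 11.2 (limma adjusted p = 0.323). Like Capn11, Ddx4 was highest in control 1. Of the 4 markers tested, 2 were higher and 2 lower in Yap CKO, with 0 called by limma. The part of germ cell RNA in the fall of Capn11 was not tested.

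**Figure D2:**
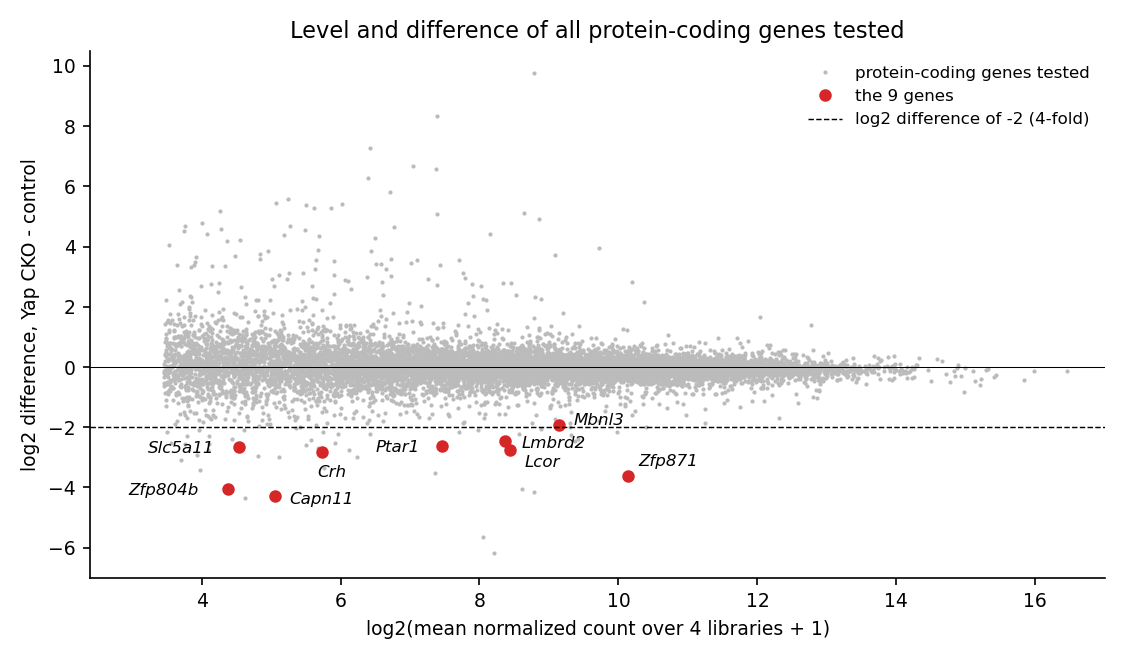
Log2 difference (Yap CKO minus control, vertical axis) against the log2 mean normalized count plus 1 over the 4 libraries (horizontal axis) for the 14539 protein-coding genes tested, with the 9 genes in red and a dashed line at -2. Zfp871 stands apart at -3.62, where few genes of its level reach the dashed line, and Mbnl3 lies just above that line at -1.91.

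Levels between genes can be compared per length. Per kilobase of merged exons, control levels ran from 187 ± 21.5 normalized counts for Zfp871 through 102 ± 6.72 for Mbnl3 down to 8.64 ± 1.39 for Zfp804b (SD, n = 2). Between them came Lcor (76.2 ± 0.410), Crh (69.7 ± 20.9) and Lmbrd2 (65.2 ± 3.76), where the spread of Crh spans the other pair. Ptar1 (23.6 ± 4.19) and Capn11 (23.1 ± 18.0) did not differ beyond their spread, and Slc5a11 stood at 14.3 ± 5.18. In Yap CKO the order changed, with Mbnl3 first at 27.0 ± 1.63 per kilobase and Zfp871 next at 15.4 ± 4.42. Lmbrd2 (11.7 ± 2.00), Lcor (11.6 ± 4.65) and Crh (9.29 ± 2.84) followed within each other's spread. Below them Ptar1 stood at 3.76 ± 0.649, Slc5a11 at 1.89 ± 0.201, Capn11 at 0.705 ± 0.510 and Zfp804b at 0.319 ± 0.144. In control libraries 37.0% of the protein-coding genes tested stood higher per kilobase than Zfp871, and 91.2% stood higher than Zfp804b.

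The order of the replicates was the same for most of the 9 genes, though some of these orders rest on little. Yap CKO 1 was below Yap CKO 2 for 8 of the 9, with Capn11 as the exception, against 50.1% of all genes tested. Control 1 was above control 2 for 8 of the 9, with Mbnl3 as the exception, against 54.4% of all genes. In Yap CKO 1 and 2, Slc5a11 had 5 and 6 reads and Zfp804b 1 and 2. The controls of Lcor were at 606 and 601. No shared replicate pattern is read from these orders. As a fold difference, the replicates of each of the 9 lay closer together than the nearest control and Yap CKO libraries. For Capn11 these were 3.45-fold between controls and 9.73-fold between groups. In counts its controls (96.9 and 28.1) lay further apart than control 2 and Yap CKO 1 (2.88). The genes were chosen for large differences between the groups, so nothing is read from this gap.

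Next to the 4-fold line, the values of genes on either side were alike. The protein-coding genes just inside -2 were Aire (-2.03) and Mal2 (-2.01), and those just outside were Scnn1b and Sema3e (both -1.99). Of the 49 protein-coding genes at or under -2, 8 belong to the 9 described here and 41 do not. Limma called 15 of the 49, including the 8, which the same values chose. Most of the 41 thus reached -2 without a call. Among those were Ddx3y (1726 and 16.4 in controls 1 and 2) and the heart gene Nppa (0.969 and 2653), whose controls differed widely. The 9 are a selection from the genes with large differences, not the whole of them. Among the 11538 protein-coding genes with a control mean of at least 100, 23 reached -2 (0.199%), and Zfp871, Lcor, Ptar1 and Lmbrd2 were 4 of these.

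Outside the 9, Lnpep ran nearest in course to 4 of them. The likeness was measured as the Euclidean distance between log2 values centred on each gene's mean, over the 4 libraries in 2 groups. The difference between these groups chose the 9, so a small distance mostly marks a fall of similar size. Nothing more is read from it. Lnpep, which encodes an insulin-regulated aminopeptidase, was the nearest protein-coding gene to Lcor (0.351), Ptar1 (0.337), Lmbrd2 (0.211) and Crh (0.521). It stood at 1152 and 1090 in controls and at 163 and 255 in Yap CKO. Gm38393 was nearest to Zfp871 (0.360) and Zfp804b (0.619), with 355 and 248 in controls and 17.3 and 35.4 in Yap CKO. The mucin gene Muc1 was nearest to Mbnl3 (0.186), the fucosyltransferase gene Fut9 to Slc5a11 (0.508) and BC100530 to Capn11 (0.6003).

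Transcript length and GC content split the 9 genes. The longest annotated transcript of Zfp871 has 10851 bases at 40.01% GC, that of Ptar1 12574 bases at 39.5% and that of Lmbrd2 8099 bases at 37.8%. Mbnl3 (4649 bases, 39.8%), Lcor (4833 bases, 42.04%) and Zfp804b (4430 bases, 43.8%) are shorter but also low in GC. Capn11 (2591 bases, 52.5%), Slc5a11 (2396 bases, 54.2%) and Crh (1320 bases, 51.1%) are neither long nor low in GC, next to medians of 3435 bases and 49.9% over the protein-coding genes tested. So 3 of the 9 have a transcript of at least 6000 bases with GC under 42%. Since length and GC helped to choose some of the 9, these features are given as a description.

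Other genes with long transcripts low in GC were also described, without a test of the difference between shares. Of the 387 such genes beside the 9, 30 fell (7.75%) and 3 rose (0.775%) by limma, against 1.163% and 1.33% of all 14530 protein-coding genes beside the 9. Their median log2 difference was -0.12, against -0.0085, and 3 of them reached -2. Among 1780 long genes of higher GC there were 24 falls and 24 rises (1.35% each). Among 1375 shorter genes of low GC there were 4 falls (0.291%) and 22 rises (1.60%), with a median of 0.044. The number of falls in the long and low-GC class was 0 when Yap CKO 1 was left out and 2 when Yap CKO 2 was. It was 89 without control 1 and 77 without control 2. It was 2 without the filter, 0 without the intensity trend and 61 with DESeq2.

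Members of that class ranged well beyond the falls. Pik3c2a, which encodes a phosphoinositide kinase, fell from 2222 and 2072 in controls to 902 and 921 in Yap CKO (log2 difference -1.23 ± 0.093 SE, limma adjusted p = 0.00565). Lnpep fell by 2.45 ± 0.21 on the log2 scale (adjusted p = 0.00669), and Nbeal1 by 1.00 ± 0.11 (adjusted p = 0.0146). St8sia6, a sialyltransferase gene, rose from 101 and 136 to 459 and 407 (1.88 ± 0.19, adjusted p = 0.0115). Fut9 (-2.51) and Ndnf (-2.17) were the other 2 of the class at or under -2, and Ndnf did not pass (adjusted p = 0.0734). When each library's values were corrected for a smooth trend in transcript GC and length, Zfp871 was at -3.52, Ptar1 at -2.49 and Lmbrd2 at -2.36. With the same correction Lcor was at -2.80 and Mbnl3 at -1.92, and the class held 27 falls. These values lay near those without the correction, which removes only an average trend over all genes. The part of transcript length and GC in the falls of the 9 genes was not tested.

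**Figure D3:**
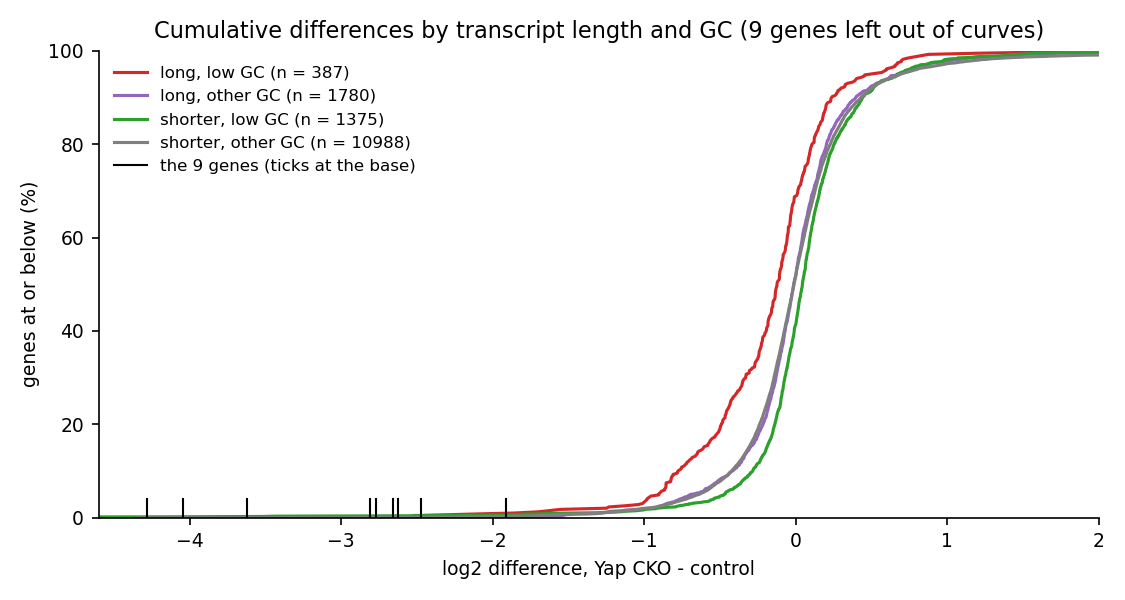
Cumulative share of protein-coding genes tested (vertical axis, percent) at or below each log2 difference (Yap CKO minus control, horizontal axis), by transcript length (6000 bases or more) and GC (under 42%), with the 9 genes left out of the curves and marked as ticks. The red curve of 387 long genes low in GC lies to the left of the others, with a median of -0.12, and the ticks of the 9 genes lie far beyond its bulk.

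The chromosomal neighbours of the 9 genes were examined next. Of the 18 nearest tested protein-coding genes, 1 on each side of each gene, 0 passed limma's test (4 had an unadjusted p under 0.05, 0 passed edgeR and 0 passed DESeq2). Over all protein-coding genes tested limma called 2.55%, and 19.5% had an unadjusted p under 0.05, so 0 of 18 is near the background. Their log2 differences ran from -1.37 to 0.48 with a median of -0.086. Zfp811, 7.39 kb from Zfp871, stood at 257 and 147 in controls and at 233 and 316 in Yap CKO. Tmem63b, 0.846 kb from Capn11, stood at 1990 and 1739 and at 1873 and 1652. Skp2, which overlaps Lmbrd2, differed by -0.091 (adjusted p = 0.647). The lowest value was that of Steap4, 616 kb from Zfp804b, at 64.0 and 90.04 in controls and 22.1 and 37.3 in Yap CKO (adjusted p = 0.107). Beside Lcor, Pik3ap1 was at -0.79 (adjusted p = 0.154), and beside Ptar1, Mamdc2 at -0.87 (adjusted p = 0.148). Trim55, a muscle gene that lies 0.98 kb from Crh, had 4.85 (control 1), 516 (control 2), 128 (Yap CKO 1) and 17.7 (Yap CKO 2), the order of the heart muscle RNA. Crh did not follow that order.

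**Figure D4:**
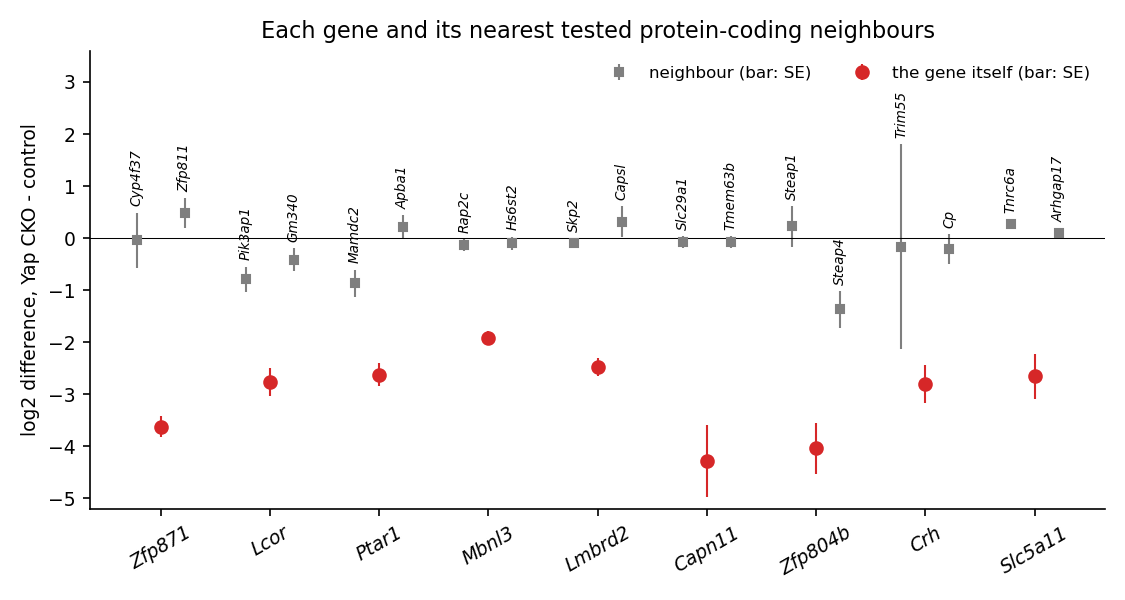
Log2 difference (Yap CKO minus control, vertical axis) of each of the 9 genes in red and of its nearest tested protein-coding gene on either side in grey, with bars of 1 limma standard error. The grey squares lie between -1.37 (Steap4) and 0.48 (Zfp811), above the red point of the gene they flank.

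The lists of relatives and partners of the 9 genes held 114 tested genes, of which limma called 0 (19 had an unadjusted p under 0.05), edgeR 0 and DESeq2 6. Over all genes tested limma called 2.33% (18.9% had an unadjusted p under 0.05), edgeR 2.07% and DESeq2 5.33%, so nothing particular to the relatives is read from these counts. Their median log2 difference was 0.0033. Of 20 zinc finger and KRAB partner genes listed for Zfp871, 16 of them on chromosome 17, 16 were higher and 4 lower in Yap CKO, with a median of 0.12 and values from -0.18 to 0.82. Zfp101 had the smallest p of these, at 1295 and 1310 in controls and 1653 and 1792 in Yap CKO (adjusted p = 0.0912 by limma and 0.0293 by DESeq2). Among all 359 other genes tested with a Zfp symbol, 204 were higher and 155 lower, with a median of 0.053. Of all 19472 genes tested, 9858 were lower. Of the 359, 1 fell by limma (0.279%), Zfp518a at -0.66 (adjusted p = 0.027).

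The PRC2 subunits and corepressors listed with Lcor lay in a narrow range. The 17 genes ran from -0.18 to 0.25 on the log2 scale with a median of 0.027, and 0 had an unadjusted p under 0.05. Lcorl, the closest relative of Lcor, stood at 1563 and 1375 in controls and at 1234 and 1371 in Yap CKO (adjusted p = 0.462). The catalytic subunit gene Ezh2 differed by 0.041 (adjusted p = 0.866). For Ptar1, the 19 prenylation genes had a median of -0.051. Rabggtb, the partner subunit of Ptar1, stood at 1344 and 1336 in controls and 1593 and 1826 in Yap CKO (0.35, adjusted p = 0.147). The alpha subunit genes Rabggta (-0.094, adjusted p = 0.796) and Fnta (0.21, adjusted p = 0.299) did not pass, and neither did the target Ykt6 (-0.038, adjusted p = 0.921).

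Splicing regulators were listed for Mbnl3. Of 20 tested, 13 were lower and 7 higher, with a median of -0.11, where 9858 of all 19472 genes tested were lower. Mbnl1, the paralog of Mbnl3, stood at 3661 and 3957 in controls and at 2767 and 3112 in Yap CKO (-0.38, adjusted p = 0.122 by limma and 0.0395 by DESeq2). Mbnl2 differed by -0.24 (adjusted p = 0.277). The quaking gene Qk (-0.42, adjusted p = 0.0856), the epithelial regulator gene Esrp2 (-0.54, adjusted p = 0.0937) and Ptbp3 (-0.39, adjusted p = 0.15) missed limma's threshold and passed with DESeq2. Per kilobase, Mbnl1 and Mbnl2 stood at 204 and 282 normalized counts in controls, above Mbnl3 at 102.

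Of the LMBR1 domain genes, Lmbrd1 (0.044, adjusted p = 0.851) and Lmbr1 (0.0077, adjusted p = 0.981) lay near 0. Lmbr1l stood at 422 and 346 in controls and 588 and 554 in Yap CKO (adjusted p = 0.0959 by limma and 0.0477 by DESeq2). Among 12 tested calpain genes the median was 0.082. Capn9, a calpain of the digestive tract, was at 15.5 and 10.53 in controls and 34.6 and 25.2 in Yap CKO (adjusted p = 0.191). Capns1, the gene of the small calpain subunit, was at 5706 and 7009 in controls and 5056 and 5148 in Yap CKO (-0.31, adjusted p = 0.233). Capn5 was at 452 and 471 and at 366 and 388 (-0.29, adjusted p = 0.256).

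For Zfp804b, the relatives Gpatch8 (0.23, adjusted p = 0.293) and Zfp804a (0.72, adjusted p = 0.765) did not pass. Zfp804a was at 2.91 and 40.9 in controls and at 30.8 and 13.05 in Yap CKO, so its groups overlapped. The 12 neuron and glia markers, tissue in which Zfp804b and Crh are also expressed, were all higher in Yap CKO by log2 values of 0.24 to 1.64, with 0 called by limma, edgeR or DESeq2 (1 gene had a limma p under 0.05 before adjustment). Their sum was 340 and 744 in controls and 939 and 759 in Yap CKO, the opposite direction to Zfp804b and Crh.

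Of the 19 genes listed for the CRH axis, 10 were above the filter. The receptor genes Crhr1 (0.969 and 0 in controls, 0 and 2.80 in Yap CKO) and Crhr2 (0.969 and 24.6, then 9.61 and 1.86) were scarce. The binding protein gene Crhbp stood at 3.85 in Yap CKO 1 and at 0 in the other libraries. The glucocorticoid receptor gene Nr3c1 was well measured, at 2460 and 2527 in controls and 2244 and 2483 in Yap CKO (-0.079, adjusted p = 0.709). Glucocorticoid-responsive genes did not pass, among them Fkbp5 (-0.28, adjusted p = 0.262), Zbtb16 (-0.66, adjusted p = 0.263), Per1 (-0.20, adjusted p = 0.393) and Tsc22d3 (-0.045, adjusted p = 0.864). Of the 10 tested, 8 were lower and 2 higher in Yap CKO, with a median of -0.14, where 9858 of all 19472 genes tested were lower.

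Slc5a3, the other main myo-inositol transporter gene, stood at 424 and 539 in controls and at 434 and 510 in Yap CKO (adjusted p = 0.953). Isyna1, whose enzyme makes inositol from glucose 6-phosphate, was at -0.13 (adjusted p = 0.704). The choline transporter gene Slc5a7 was at 17.4 and 30.4 and at 57.7 and 41.9 (1.06, adjusted p = 0.202). Over the 9 tested genes of this list the median was -0.022.

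**Figure D5:**
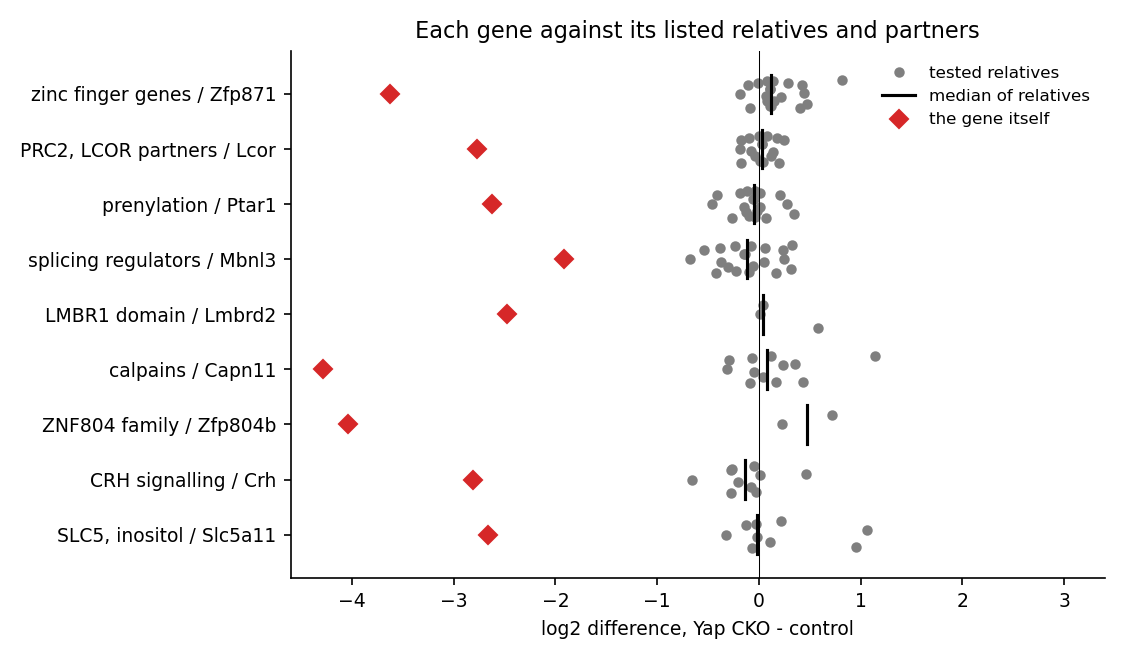
Log2 difference (Yap CKO minus control, horizontal axis) of the tested relatives and partners (grey points) listed for each of the 9 genes (red diamonds), and black bars for the medians of the points drawn, with only the 3 LMBR1 domain genes drawn for Lmbrd2. The grey points of all 9 lists reach up to 1.15 (Capn9) and lie to the right of every red diamond.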

How the data were processed

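RNA sequencing covered 4 libraries of whole lung, 2 control and 2 Yap CKO. The deposited table holds normalized counts, a signal in which the authors' read counts were divided by 1 factor per library, as the values show. Tools listed, without role or order, are edgeR 3.18.1, DESeq 1.16.0, Bowtie2 2.2.9 and featureCounts 1.5.0-p1, per the submitters' processing notes, and the build is mm10, per the file headers. Annotation release and strand setting are not given in the sources used here. Whole reads were recovered (100% of values within 0.001 reads). GENCODE M21 matched 52489 of 52636 identifiers and gave symbols, positions and longest transcripts.

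Genes with a mean of at least 10 were tested on log2(normalized count + 1) with limma 3.58.1 in R 4.3.3 (intensity trend, two-sided, Benjamini-Hochberg adjusted p under 0.05). Recovered reads were tested with edgeR 4.0.16 (quasi-likelihood) and DESeq2 1.42.0 as alternatives, and the 3 tools were tested on simulated data. Counting intervals cover counting error only. Text names the 9 genes, Yap1, close relatives, up to 3 relatives per list by p, nearest neighbours, most similar profiles, and genes near -2. Ezh2, Ykt6, Ptbp3, Lmbr1, Nr3c1, Tsc22d3, Isyna1, Zfp518a, Ndnf, Star, Ddx4, Ddx3y and Nppa were added after their values were seen. The 9 genes and the lists were chosen with earlier results of these data known. 1 listed gene is not reported here.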

Additional observations from a re-analysis of the deposited data

How the results depend on the processing

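The log2 differences of the 9 genes stayed below 0 under all 16 alternatives, and 135 of 141 values moved by less than the replicate SD. The 6 that moved more were those of Zfp804b, Capn11 and Slc5a11 under other pseudocounts or count models, for example Zfp804b at -2.75 with a pseudocount of 5 and -4.76 with DESeq2. With a filter at 50, Capn11, Zfp804b and Slc5a11 were left out, so 5 genes reached -2, and 40 genes did in all (26 protein-coding). Over all genes tested, 223 fell and 231 rose. These numbers were 17 and 39 without the filter, 1 and 5 without the trend, and 596 and 441 with DESeq2. Under equal totals they were 179 and 292, a split of 38.004% falls against 49.1%. Leaving out 1 library gave 2 to 1262 falls and 0 to 1258 rises. In the long and low-GC class the 30 falls and 3 rises became 2 and 0 without the filter, 0 and 0 without the trend, and 61 and 10 with DESeq2, and they ranged from 0 to 89 and from 0 to 24 with 1 library left out. For the relatives they were 4 and 2 with DESeq2, and 0 to 5 and 0 to 6 with 1 library left out. Genes at or under -2 numbered 82 (49 protein-coding), 155 without the filter, 88 protein-coding with edgeR and with DESeq2, and 96 to 181 (65 to 144) with 1 library left out. Trim55 (-0.16) turned to 3.07 (adjusted p = 0.00638) without control 2 and was at -3.40 without control 1. The cause of these moves was not tested, beyond the genes a filter removes. Fits with 1 library in a group assume that it varies like the other group. With the replicate number as a block, 176 genes fell and 166 rose. Numbers 1 and 2 are not stated to pair libraries, and deviations of same-numbered libraries correlated at -0.36 over 19472 genes. Depth limits Zfp804b and Capn11, with 3 and 4 reads in Yap CKO.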
